A study of Mus musculus with 6 samples.

Results

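The mGluR6 signalling complex of ON bipolar cells was followed through 9 genes in the retina of SIRT6 KO and SIRT6 WT mice. Its members were taken as every probe set whose single annotated symbol was Grm6, Trpm1, Nyx, Lrit3, Gpr179, Gnao1, Gnb3, Gng13, Rgs7 or Rgs11. This gave 10 probe sets for 9 genes, of 23521 tested probe sets for 22180 genes, with 2 for Grm6 and 1 for each of the others. Gng13 has no probe set of its own, because those that carry its symbol also carry a neighbouring gene's, and it is named here without values.

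The SIRT6 KO group held 3 retinal samples of mice in which Sirt6, a NAD-dependent deacylase that acts on histone H3, had been knocked out. The SIRT6 WT group held 3 samples with intact Sirt6. All 6 samples came from the 129SvJ strain at 15 days of age, and total RNA of the whole retina of each was read on an Affymetrix Gene ST microarray. The knockout is carried by the whole animal and not by the retina alone. The labels do not say how many animals each sample holds, and p-values measure only the spread between these samples.

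In darkness, photoreceptors release glutamate, which binds mGluR6, the product of Grm6, on the dendritic tips of ON bipolar cells. The receptor acts through the G protein Go, built here from the alpha subunit Gnao1, the beta subunit Gnb3 and the gamma subunit Gng13, and active Go keeps the cation channel TRPM1 closed. In light the glutamate falls, the regulators Rgs7 and Rgs11 speed the shutoff of Go, and the channel opens and depolarizes the cell. Nyctalopin (Nyx) and Lrit3 are leucine-rich repeat proteins needed to place TRPM1 at the dendritic tip, and the orphan receptor Gpr179 holds the RGS proteins there. In humans, loss of GRM6, TRPM1, NYX, LRIT3 or GPR179 causes a stationary night blindness in which the b-wave of the electroretinogram is lost.

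Grm6 and Nyx were lower in KO than in WT retinas at an unadjusted p under 0.05 from limma. The channel gene Trpm1 and the scaffold gene Lrit3 were not, with log2 fold changes of -0.13 (unadjusted p = 0.5007 from limma) and -0.12 (0.4760). The groups of Trpm1 and Lrit3 overlapped, as did those of the dimmer of the 2 Grm6 probe sets. The difference of Grm6 was the largest of the 9 genes, its KO level being 0.639 times that of WT. Of the 10 probe sets, 9 had a lower mean in KO, beside 12186 of the 23521 tested. Of the 10, 3 were lower with a limma p under 0.05 before adjustment (both of Grm6 and that of Nyx), where 0.961% of all tested probe sets were lower with such a p. None was higher at that level, beside 0.897% of all tested. No member passed the Benjamini-Hochberg adjustment over all probe sets (adjusted p = 0.9999 from limma for each), and 0.00425% of all probe sets did, which is Sirt6 alone. The median log2 fold change (KO minus WT) of the 10 probe sets was -0.30, against -0.01 over all tested. The genes had been brought together with earlier results of these arrays known, so that these counts describe them and do not test them.

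The targeted gene separated the genotypes as labelled. Sirt6 had log2 intensities of 6.47, 7.15 and 6.83 in KO replicates 1 to 3 and of 9.34, 9.14 and 9.32 in WT replicates 1 to 3 (log2 fold change -2.45 with a standard error of 0.20, adjusted p = 0.0321 from limma). The median log2 intensity of the arrays lay between 6.94 and 7.09. The interquartile range of KO replicate 2 (2.60) and WT replicate 2 (2.48) was narrower than in the other samples (2.85 to 3.07). The replicate numbers, which the labels repeat in both genotypes, were taken to pair the samples, and differences within a number are given too. The deviations of same-numbered samples from their group means correlated at 0.63, 0.74 and 0.19, and those of unlike numbers at -0.66 to 0.51, so that the pairing of number 3 was weak.

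The promoter sequences of the 2 genes that were lower at an unadjusted p under 0.05, Grm6 and Nyx, are shown with that of Trpm1, which was not. Each is the 250 bases before a start of the gene in RefSeq, on the reference build GRCm38.p6 and not on the strain of these mice. The motifs TAATCC, the core bound by OTX2 and CRX, and TAATTA, a core of many homeodomain factors of the retina, were searched on both strands, and matches stand in capitals.

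Grm6: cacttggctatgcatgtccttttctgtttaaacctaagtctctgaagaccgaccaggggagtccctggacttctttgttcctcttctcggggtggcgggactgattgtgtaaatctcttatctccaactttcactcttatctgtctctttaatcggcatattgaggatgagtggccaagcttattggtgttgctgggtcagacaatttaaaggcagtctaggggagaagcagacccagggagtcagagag

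Nyx: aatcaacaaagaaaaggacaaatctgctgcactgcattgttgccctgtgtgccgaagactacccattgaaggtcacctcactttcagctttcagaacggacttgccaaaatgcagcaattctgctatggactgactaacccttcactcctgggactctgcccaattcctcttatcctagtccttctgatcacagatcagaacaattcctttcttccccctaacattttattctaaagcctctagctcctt

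Trpm1: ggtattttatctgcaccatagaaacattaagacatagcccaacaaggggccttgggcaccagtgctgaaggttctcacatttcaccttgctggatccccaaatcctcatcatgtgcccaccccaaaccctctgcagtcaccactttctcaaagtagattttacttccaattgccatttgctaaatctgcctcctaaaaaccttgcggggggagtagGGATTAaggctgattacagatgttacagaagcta

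The Grm6 sequence lies at chr11:50850435-50850684 (plus strand), the Nyx sequence at chrX:13460840-13461089 (plus strand) and the Trpm1 sequence at chr7:64153585-64153834 (plus strand). TAATCC stood once in the Trpm1 sequence, on the opposite strand, and TAATTA in none of the 3. Over all 32851 promoter sequences of this length, 6.25% held TAATCC and 4.84% held TAATTA. A second start of Trpm1, both starts of Gng13 and the promoters of Rgs7, Lrit3, Gnao1 and Gpr179 were searched as well and held neither motif. Which start the retina uses was not tested, and a match or its absence says nothing about binding.

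Grm6 was lower in every KO sample on its brighter probe set (17249234). The log2 intensities were 9.63, 9.77 and 9.72 in KO replicates 1 to 3, against 10.32, 10.24 and 10.49 in WT replicates 1 to 3. On the linear scale these are intensities of 790 to 873 in KO and 1211 to 1442 in WT retinas. The groups were 0.47 apart on the log2 scale at their nearest samples, with 9.71 ± 0.07 in KO and 10.35 ± 0.13 in WT (SD, n = 3). The log2 fold change was -0.65 (standard error 0.16, 95% interval -1.01 to -0.29, unadjusted p = 0.0030 from limma). An exact permutation test over samples, two-sided, gave p = 0.10, the smallest that 3 samples against 3 allow.

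The other Grm6 probe set (17262413) was dimmer, with a mean at the 47.1 percentile of tested probe sets, while the first stood at the 91.4 percentile. Both were assigned to Grm6 by symbol alone, and which strand each reads was not checked. The dimmer probe set read 7.15, 6.81 and 6.86 in KO replicates 1 to 3 and 7.70, 7.11 and 7.46 in WT replicates 1 to 3. KO replicate 1 lay above WT replicate 2, so the groups overlapped. Its log2 fold change was -0.48 (standard error 0.20, unadjusted p = 0.0433 from limma, exact permutation p = 0.20). With the replicate number as a block its limma p was 0.0071, and within the numbers the KO sample was lower by 0.55, 0.30 and 0.60. Its unadjusted p was 0.05 or more in 8 of 15 alternatives, among them the methods' t-test (0.0772), median centring (0.0703) and the fits without KO replicate 2 (0.1193), KO replicate 3 (0.1105), WT replicate 1 (0.1785) or WT replicate 3 (0.0992). The brighter probe set stayed under 0.05 in all 15, with log2 fold changes between -0.73 and -0.58.

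**Figure D1:**
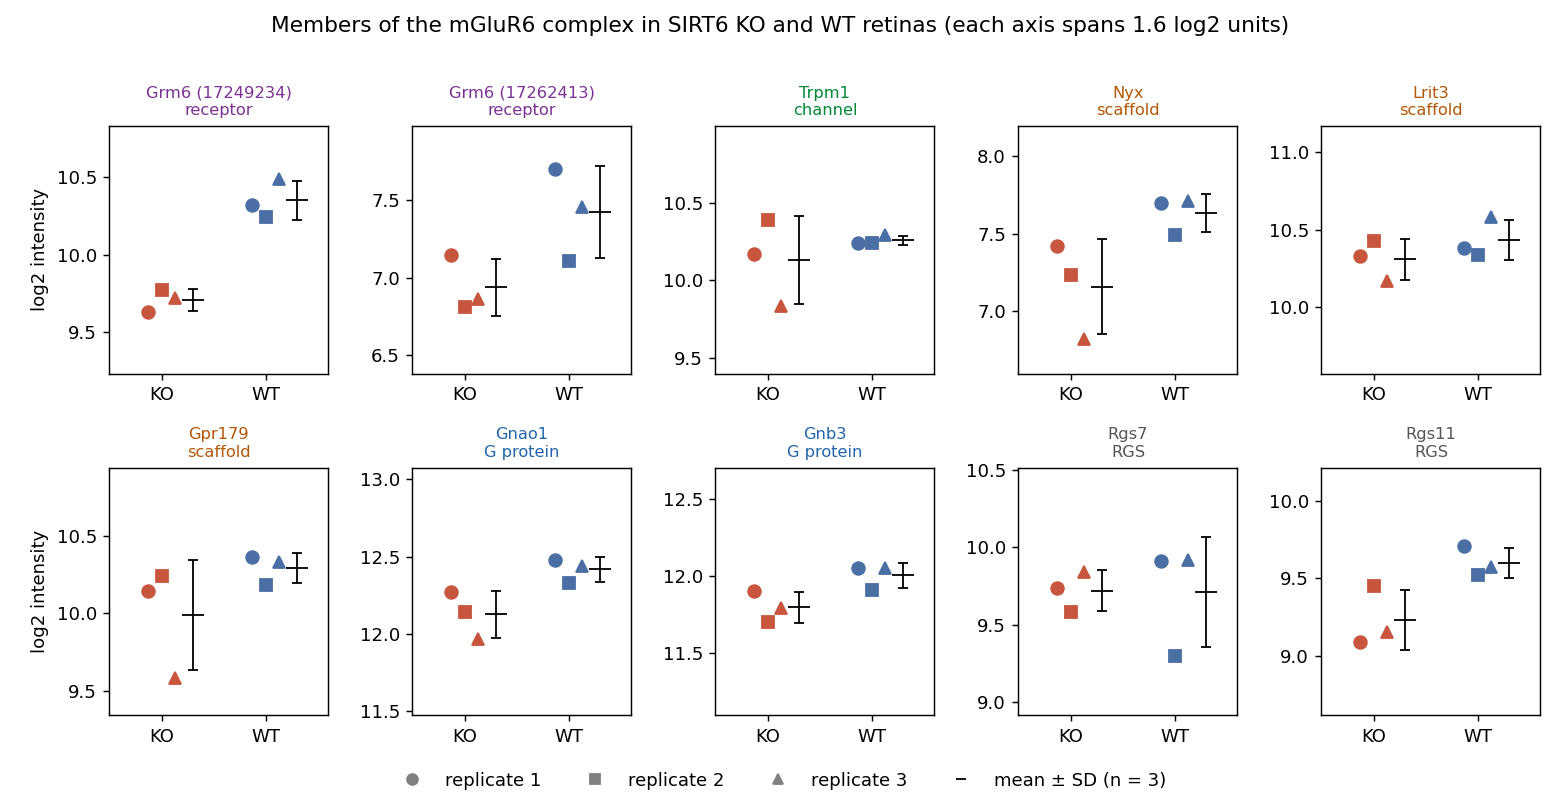
Log2 intensity (vertical axis) of each of the 10 member probe sets in KO and WT retinas, with 1 symbol per sample, its shape giving the replicate number, and the mean ± SD of 3 samples beside it. The 3 KO samples of the brighter Grm6 probe set lie between 9.63 and 9.77, below all WT samples, whereas those of Trpm1 lie on both sides of the WT samples.

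The channel gene Trpm1 showed no such separation. Its log2 intensities were 10.17, 10.39 and 9.83 in KO replicates 1 to 3, and 10.24, 10.24 and 10.29 in WT replicates 1 to 3. The WT samples were within 0.05 of each other, while KO replicate 2 was the highest of the 6 samples and KO replicate 3 the lowest. This gave a log2 fold change of -0.13 (standard error 0.19, 95% interval -0.55 to 0.29, exact permutation p = 0.70), an interval that takes in the value of Nyx given next. The value was 0.02 without KO replicate 3, -0.26 without KO replicate 2 and -0.27 without both samples numbered 2 (unadjusted p = 0.1419 from limma).

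The scaffold genes are given next, first nyctalopin. The Nyx probe set had a mean at the 50.8 percentile of tested probe sets, while that of Trpm1 stood at the 93 and that of Lrit3 at the 94.3 percentile. Nyx read 7.42, 7.23 and 6.82 in KO replicates 1 to 3, against 7.70, 7.49 and 7.71 in WT replicates 1 to 3. All KO samples were below all WT samples, by as little as 0.07 between KO replicate 1 and WT replicate 2. The log2 fold change of Nyx was -0.48 (standard error 0.20, 95% interval -0.92 to -0.03, unadjusted p = 0.0406 from limma, exact permutation p = 0.10), and its KO level was 0.719 times that of WT. KO replicate 3 weighed most in this value, since the KO sample was lower by 0.28, 0.26 and 0.89 within replicate numbers 1 to 3. Without that sample the log2 fold change was -0.31 and the limma p 0.1415. The limma p was also above 0.05 without KO replicate 2 (0.0620), WT replicate 1 (0.1134) or WT replicate 3 (0.1079). So was the unadjusted p of Nyx from the methods' t-test (0.0680).

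Gpr179 had a lower mean in KO, whose size depended on single samples. It read 10.14, 10.24 and 9.58 in KO replicates 1 to 3, beside 10.36, 10.18 and 10.33 in WT replicates 1 to 3. KO replicate 2 lay above WT replicate 2, and KO replicate 3 stood well below all others. Its log2 fold change was -0.30 (standard error 0.21, unadjusted p = 0.1783 from limma, exact permutation p = 0.20), -0.10 without KO replicate 3 and -0.43 without KO replicate 2. It was -0.48 without both samples numbered 2 (unadjusted p = 0.0592 from limma) and -0.43 with array weights (unadjusted p = 0.0253 from limma). Lrit3 read 10.33, 10.43 and 10.17 in KO replicates 1 to 3, and 10.38, 10.34 and 10.58 in WT replicates 1 to 3. Its groups overlapped, with a log2 fold change of -0.12 (standard error 0.16, 95% interval -0.50 to 0.25, exact permutation p = 0.40).

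The G protein genes had lower means in KO, and neither passed. Gnao1, the alpha subunit that many retinal neurons share, read 12.27, 12.14 and 11.97 in KO replicates 1 to 3, against 12.48, 12.33 and 12.44 in WT replicates 1 to 3. Gnb3, a beta subunit that cones use as well, read 11.90, 11.70 and 11.79 in KO replicates 1 to 3 and 12.05, 11.91 and 12.05 in WT replicates 1 to 3. Neither gene's groups overlapped, although the nearest samples of Gnb3 were only 0.01 apart and those of Gnao1 0.07. The log2 fold change was -0.29 (standard error 0.16) for Gnao1 and -0.21 (standard error 0.15) for Gnb3, with unadjusted limma p-values of 0.1042 for Gnao1 and 0.2141 for Gnb3 (exact permutation p = 0.10 for each). The limma p of Gnao1 came under 0.05 with an intensity trend and a robust prior (0.0400) and with array weights (0.0189). The methods' t-test, which is not a limma fit, gave it an unadjusted p of 0.0387.

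The genes of the RGS proteins, which end the signal, did not pass, and their difference from each other was not tested. Rgs11 read 9.09, 9.45 and 9.15 in KO replicates 1 to 3, against 9.71, 9.52 and 9.57 in WT replicates 1 to 3. The groups did not overlap, with 0.07 between KO replicate 2 and WT replicate 2. Its log2 fold change was -0.37 (standard error 0.17, 95% interval -0.75 to 0.02, unadjusted p = 0.0589 from limma, exact permutation p = 0.10). Its unadjusted limma p was 0.0379 with the replicate number as a block and 0.0081 without both samples numbered 2. The unadjusted p of Rgs11 was under 0.05 in 6 of 15 alternatives, among them the methods' t-test (0.0408). Rgs7 read 9.74, 9.58 and 9.84 in KO replicates 1 to 3 and 9.91, 9.30 and 9.92 in WT replicates 1 to 3. WT replicate 2 was the lowest sample and both other WT samples were above all KO samples, so that the log2 fold change was 0.01 (standard error 0.21, 95% interval -0.47 to 0.49, unadjusted p = 0.9780 from limma) and -0.20 without WT replicate 2. That interval takes in the value of Rgs11.

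**Figure D2:**
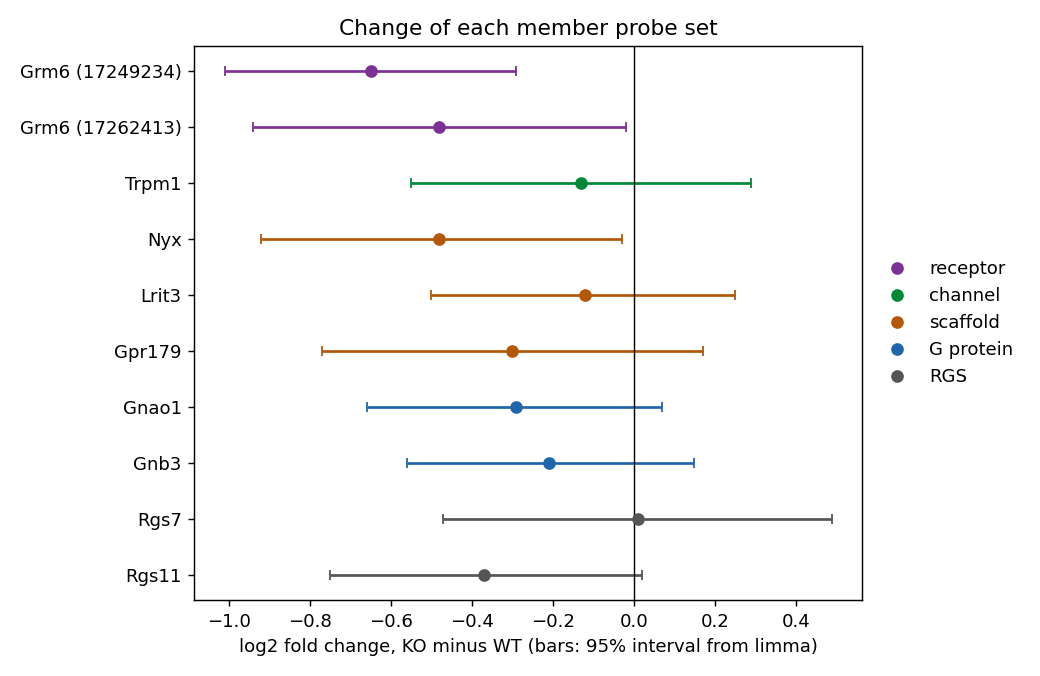
Log2 fold change (KO minus WT, horizontal axis) of each member probe set with its 95% interval from limma, coloured by its part in the complex. The intervals of both Grm6 probe sets and of Nyx lie below 0, and that of Rgs11 reaches 0.02.

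By part, the median log2 fold change was -0.56 for the receptor (2 probe sets), -0.13 for the channel (1), -0.30 for the scaffold (3), -0.25 for the G protein (2) and -0.18 for the RGS proteins (2). In 5 of the 10 probe sets the highest KO sample was below the lowest WT sample (Grm6 on 17249234, Nyx, Gnao1, Gnb3 and Rgs11), as it was in 3.67% of all tested. The reverse was seen in 0 of the 10, and in 1.98% of all tested. Within replicate numbers, the KO sample was lower in all 3 pairs for 6 probe sets (both of Grm6, Nyx, Gnao1, Gnb3 and Rgs11), beside 15.9% of all tested. With the number as a block, 4 of the 10 (both of Grm6, Nyx and Rgs11) had a lower level with a limma p under 0.05 before adjustment, beside 3.54% of all tested. The remaining 4 probe sets, of Trpm1, Lrit3, Gpr179 and Rgs7, were higher in KO for number 2 and lower for numbers 1 and 3.

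**Figure D3:**
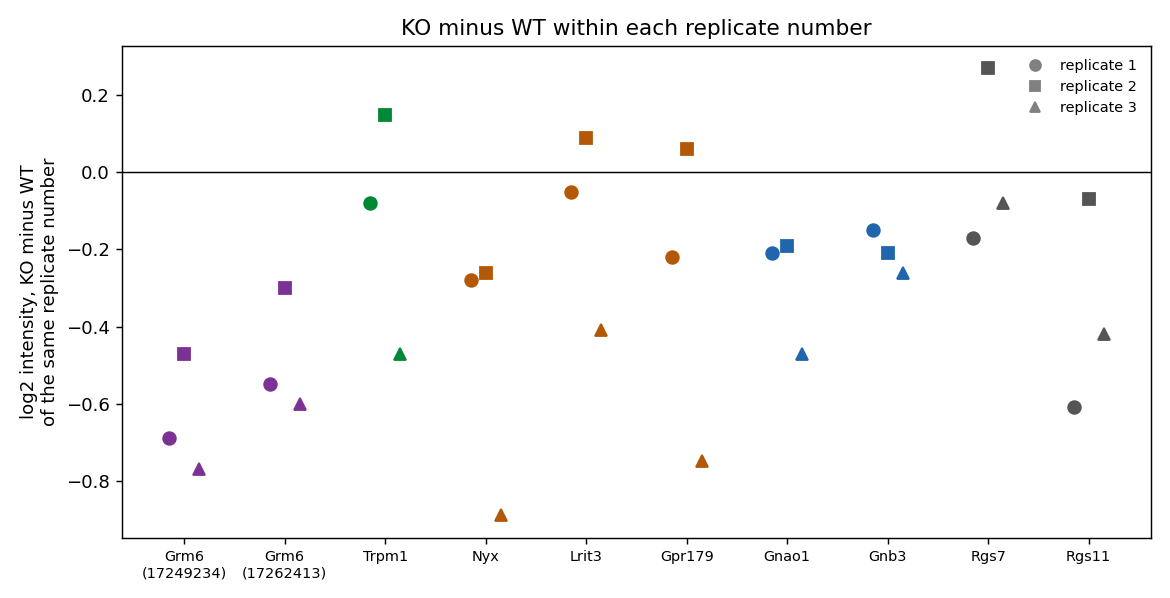
KO minus WT difference in log2 intensity (vertical axis) within each replicate number for the 10 member probe sets, coloured by part as receptor, channel, scaffold, G protein and RGS. All 3 differences of Grm6 on 17249234 lie between -0.77 and -0.47, while those of Trpm1, Lrit3, Gpr179 and Rgs7 have both signs.

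KO replicate 3 was the lowest of the 6 samples in 5 of the 10 probe sets (Trpm1, Nyx, Lrit3, Gpr179 and Gnao1). It was not the lowest for Grm6, where KO replicate 1 was lowest on the brighter probe set and KO replicate 2 on the other. The median of the members relative to the WT mean was -0.15, -0.21 and -0.45 in KO replicates 1 to 3, and 0.06, -0.10 and 0.04 in WT replicates 1 to 3. Over all tested probe sets it was 0.01, -0.03 and -0.02 in KO replicates 1 to 3. How often KO replicate 3 was lowest over all tested was not computed. This sample also had the highest median of myelin markers (1.15, against 0.27 and 0.35 in KO replicates 1 and 2). The same held for pigment epithelium markers (0.66, against -0.16 and -0.36). Whether this bears on the members was not tested.

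To ask whether the receptor changed by more than its partners in the same retina, the log2 intensity of each other member was subtracted from that of Grm6 (17249234) in every sample, which gave 8 comparisons that share the Grm6 values. Relative to Trpm1, Grm6 stood at -0.54, -0.62 and -0.10 in KO replicates 1 to 3, against 0.08, 0.00 and 0.20 in WT replicates 1 to 3, so that the groups did not overlap. The KO minus WT difference was -0.52 (standard error 0.17). It was -0.52 against Lrit3 (standard error 0.08), -0.65 against Rgs7 (0.19), -0.44 against Gnb3 (0.11), -0.35 against Gnao1 (0.13) and -0.28 against Rgs11 (0.12). In these 6 comparisons every KO value lay below every WT value (exact permutation test, two-sided, p = 0.10 each, 0.13 after Benjamini-Hochberg adjustment over the 8). Since this Grm6 probe set alone was 0.47 apart between the groups, subtracting a gene that changed little leaves them apart. How often the same subtraction keeps the groups apart over all tested probe sets was not computed, so the 6 are no independent support. Against Gpr179 the difference was -0.34 (standard error 0.22, exact permutation p = 0.30, adjusted 0.34) and against Nyx -0.17 (standard error 0.21, exact permutation p = 0.60, adjusted 0.60), with overlap in both. The separation held for the brighter Grm6 probe set only. With the other (17262413), a choice made after seeing the data, the KO and WT values stayed apart in 1 of the 8 comparisons, that with Rgs7 (-0.49, standard error 0.15), and overlapped in the other 7, with differences of -0.36 (0.21) against Lrit3, -0.35 (0.26) against Trpm1 and -0.11 (0.23) against Rgs11. On neither probe set was the change of Nyx separated from that of Grm6 beyond the spread of these samples, and with 3 samples against 3 no comparison could reach 0.05.

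**Figure D4:**
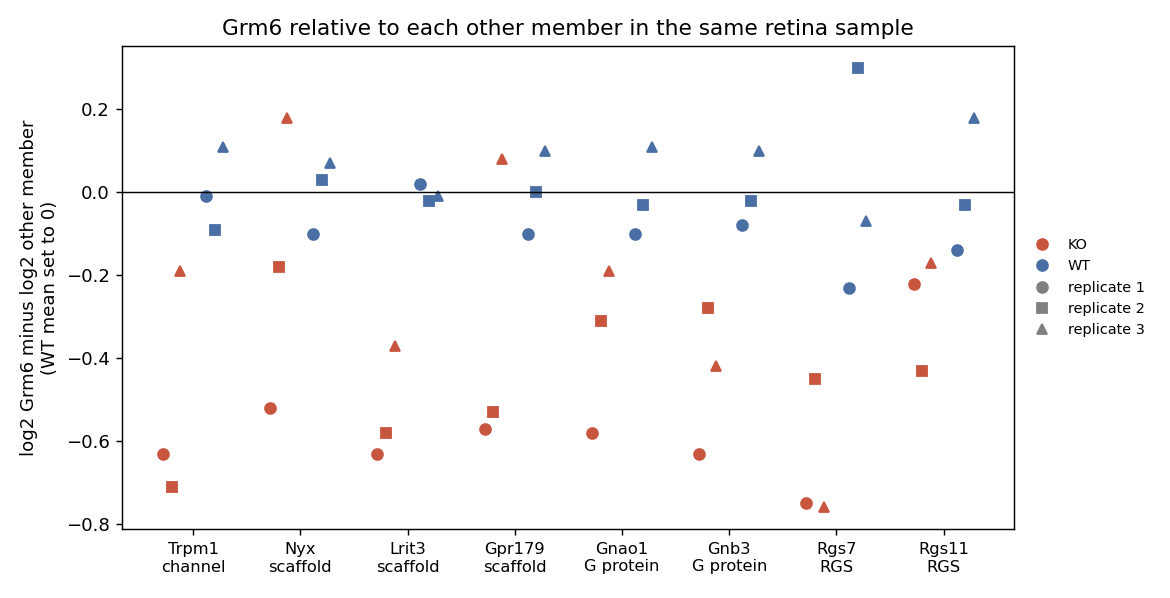
Log2 intensity of Grm6 minus that of each other member in the same sample (vertical axis, WT mean set to 0), with KO left of WT for each member and symbols by replicate number. With the brighter Grm6 probe set (17249234), which is plotted, KO and WT points are apart for Trpm1, Lrit3, Gnao1, Gnb3, Rgs7 and Rgs11, and overlap for Nyx and Gpr179.

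Genes around the complex had lower means too, none of them at an unadjusted p under 0.05. In a list of 15 partners, which held further subunits, trans-synaptic proteins and related leucine-rich repeat genes, 14 had a lower mean in KO. Over all tested probe sets 12186 of 23521 did. The median log2 fold change of the 15 partners was -0.21 against -0.01 over all tested. Smallest in p were Tpbg, a leucine-rich repeat membrane protein of rod bipolar cells, at -0.40 (standard error 0.20, unadjusted p = 0.0776 from limma), and Lrit2 at -0.45 (0.24, unadjusted p = 0.0916 from limma). Egflam, the matrix protein pikachurin that links photoreceptor terminals to bipolar dendrites, had -0.21 (0.16) and Lrfn2 -0.21 (0.17). Gnb5, the beta subunit that RGS7 and RGS11 need for their stability, was the only one of the 15 with a higher mean, at 0.20 (standard error 0.17). It read 12.63, 12.63 and 12.32 in KO replicates 1 to 3 and 12.44, 12.19 and 12.35 in WT replicates 1 to 3, with overlap. With the replicate block, the unadjusted limma p was 0.0126 for Lrit2 and 0.0188 for Tpbg. These were 2 of the 15 lower at a p under 0.05 with the block, beside 3.54% of all tested.

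On the photoreceptor side of the synapse, the calcium channel that drives glutamate release was represented by 4 genes. All 4 had lower means without passing (median log2 fold change -0.14), beside 12186 of the 23521 tested probe sets. The 4 genes were Cabp4 (-0.17, standard error 0.18), Cacna1f (-0.21, 0.23), Cacna2d4 (-0.11, 0.18) and Cacnb2 (-0.04, 0.16). Of 17 other measured G protein and RGS genes, 12 were lower on average, beside 12186 of the 23521 tested probe sets. The median log2 fold change of the 17 genes was -0.06, and none of them was under 0.05. Smallest in p was Gng4 at -0.34 (standard error 0.15, unadjusted p = 0.0563 from limma), followed by Rgs4 at -0.41 (0.35), the rod transducin Gnat1 at -0.17 (0.15) and Rgs9 of the photoreceptors at 0.22 (0.21). With the replicate block the unadjusted limma p was 0.0358 for Gng4 and 0.0194 for Rgs4. These were 2 of the 17 lower at a p under 0.05 with the block, beside 3.54% of all tested.

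A list of genes used for rod and ON bipolar cells is set beside the receptor. Whether its genes are confined to these cells was not tested, so the list does not measure the number of cells. In whole retina, fewer ON bipolar cells and less RNA per cell cannot be told apart. Of its 13 measured genes, all outside the complex, 10 were lower on average in KO, beside 12186 of the 23521 tested probe sets. Their median log2 fold change was -0.14, and 0 passed at an unadjusted p under 0.05 from limma. Their smallest p-values belonged to Vstm2b (-0.21, standard error 0.17), the carbonic anhydrase-related Car8 (0.24, 0.20), the homeobox gene Sebox (-0.25, 0.21) and the transcription factor Irx5 (-0.16, 0.15). The protein kinase C gene Prkca, by which rod bipolar cells are usually stained, was named outside the rule for named genes and had 10.87, 11.03 and 10.43 in KO replicates 1 to 3, against 10.87, 10.70 and 10.86 in WT replicates 1 to 3. It thus overlapped between the genotypes, with a log2 fold change of -0.04 (standard error 0.19). Over the 13 genes, the median per sample relative to the WT mean was -0.04, -0.29 and 0.02 in KO replicates 1 to 3, and 0.14, -0.25 and 0.15 in WT replicates 1 to 3. Both samples numbered 2 were thus the lowest of their genotype there.

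OFF bipolar cells, which lack mGluR6 and use ionotropic glutamate receptors, were represented by 11 measured genes. Of these, 8 were lower on average in KO (median log2 fold change of the 11 -0.23), beside 12186 of the 23521 tested probe sets. Grik1, the kainate receptor subunit of these cells, was lower at an unadjusted p under 0.05, with 9.78, 9.69 and 9.62 in KO replicates 1 to 3 and 10.20, 9.90 and 10.15 in WT replicates 1 to 3. Its log2 fold change was -0.39 (standard error 0.16, unadjusted p = 0.0434 from limma, exact permutation p = 0.10) and its groups did not overlap. With the replicate block the unadjusted limma p was also under 0.05 for Tacr3 (log2 fold change -0.52, 0.0047) and Neto1 (-0.37, 0.0491), which were named for this after their values were seen. With the block 3 of the 11 were thus lower at that level, beside 3.54% of all tested. Without it 1 of the 11 was, beside 0.961% of all tested.

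**Figure D5:**
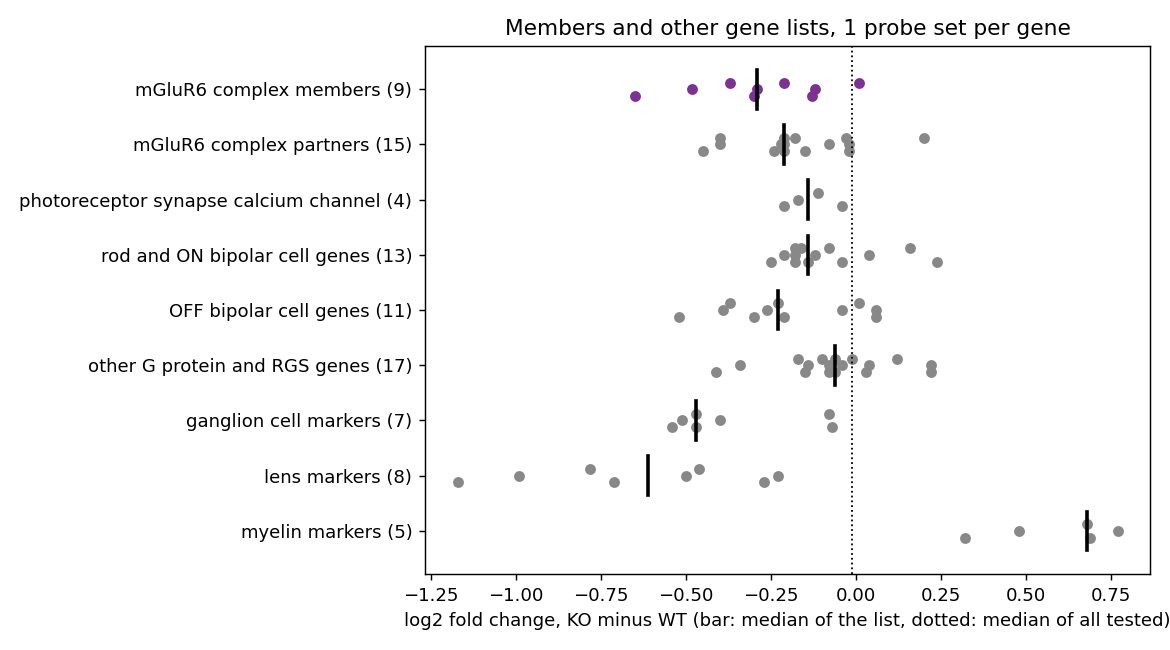
Log2 fold change (KO minus WT, horizontal axis) of the 9 complex genes and of the genes of 8 other lists, 1 probe set per gene, with the number of genes in brackets, a bar at the median of each list and a dotted line at the median of all tested probe sets. The complex has a median of -0.29, beside -0.14 for rod and ON bipolar genes and -0.23 for OFF bipolar genes.

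Markers of some other cells had lower or higher means in KO, none with an adjusted p under 0.05 from limma, and their part in the values above was not tested. All 7 measured ganglion cell markers had lower means in KO (median -0.47), beside 12186 of the 23521 tested probe sets. Of these markers, Thy1 (-0.47), Nefl (-0.54) and Nefm (-0.51) were under an unadjusted p of 0.05 from limma (0.961% of all tested). All 8 lens markers had lower means (median -0.61, none under 0.05), with a summed intensity of 10103 to 23850 in KO and 12705 to 41461 in WT retinas, and their median was lowest in the sample numbered 2 of each genotype. All 5 measured myelin markers had higher means (median 0.68), beside 11335 of the 23521 tested, with Mobp under 0.05 (0.897% of all tested). The summed intensities of these markers were 886 to 1378 in KO and 668 to 800 in WT retinas. Of 7 amacrine cell markers, 6 had lower means (median -0.08) and Th was higher at an unadjusted p under 0.05, and of 7 pigment epithelium markers, 6 had lower means (median -0.04) and Rdh5 was lower at that level. With the replicate number as a block, the unadjusted limma p was under 0.05 for 6 of the 8 lens markers and 5 of the 7 ganglion cell markers, all lower in KO (3.54% of all tested), and for 4 of the 5 myelin markers, all higher in KO (3.77% of all tested). Rod markers (7 measured, median -0.03, summed intensity 42362 to 46217 in KO and 44785 to 47512 in WT) and Mueller glia markers (7 measured, median -0.06, 17648 to 20677 in KO and 17452 to 21334 in WT) had none under 0.05 with or without the block. The rod transducin Gnat1 was among the bright genes of a retina in every sample, with 13.58 to 13.75 in KO and 13.80 to 13.82 in WT.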

How the data were processed

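Total retinal RNA of 3 SIRT6 KO and 3 SIRT6 WT samples was hybridized to Affymetrix Gene ST microarrays. Each deposited value is an intensity, computed by the authors with RMA in R Bioconductor (background correction, quantile normalization, probe set summary). Version, annotation and build are not given in the sources used here. The values ran from about 8.01 to 17460 and were read as linear, so log2 was taken. Probe sets with 1 symbol in the platform annotation were tested (23521 of 41345). Left out were 1820 with several symbols and 16004 without.

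The KO minus WT contrast was fitted with lmFit and eBayes in limma 3.58.1 (R 4.3.3), two-sided, without covariates, with Benjamini-Hochberg adjustment over all tested probe sets at 0.05. For gene lists, the probe set with the largest variance on the linear scale was used. The replicate numbers of the titles were taken to pair the samples, because the deviations of same-numbered samples from their group means all correlated above 0.1 (0.63, 0.74 and 0.19). Unlike numbers reached 0.51 (KO replicate 1 with WT replicate 3) and 0.12 (KO replicate 3 with WT replicate 1). The cut of 0.1 therefore does not set same-numbered samples apart, and every p-value with the replicate block rests on an assumed pairing. The fit without the block was checked on simulated data with independent noise in each sample. That setting leaves out the correlation between same-numbered samples, so the check does not cover it. The number of arrays limits the precision. The members, lists and alternatives were chosen with earlier results of these data known. Named genes were all members, Sirt6 and, in each pathway list, genes at an unadjusted p under 0.05 or the 4 smallest p-values. Genes most like Grm6 were ranked by Pearson correlation.

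Results were also computed, where the setting applied, with a replicate block, with an ordinary t-test as named in the methods, after renewed quantile normalization, after median centring, without the dimmest 25% of probe sets, with every probe set, with array weights, with a trend and robust prior, with the brightest probe set per gene, without each sample in turn and without both samples numbered 2.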

Additional observations from a re-analysis of the deposited data

How the results depend on the processing

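No member passed the adjustment over all probe sets under any alternative, and the smallest adjusted p from limma was 0.275 for Grm6 (17249234), with array weights. Calls over all probe sets were 1 in the comparison as reported (Sirt6), 3 with the replicate block or array weights, 0 with the methods' t-test, median centring, all probe sets or without both samples numbered 2, and 0 to 1 without single samples. At an unadjusted p under 0.05 the reported counts were 226 lower and 211 higher. They were 833 and 887 with the replicate block, 1544 and 1568 with array weights, 647 and 833 without both samples numbered 2, and 353 and 322 over all probe sets. The lower count was 423 with the methods' t-test and 616 with quantile normalization again, and the higher count was 135 without dim probe sets. Without single samples they ran from 70 to 823 lower and from 114 to 1204 higher. The count of 3 member probe sets lower at that level was 6 with array weights and 1 to 4 without single samples. It was 1, Grm6 on 17249234, without KO replicate 3, WT replicate 1 or WT replicate 3.

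Directions changed for small values only. Rgs7 had a log2 fold change of -0.02 with quantile normalization again, -0.15 with array weights, -0.13 without both samples numbered 2, and -0.20 to 0.11 without single samples. Trpm1 ran from -0.26 to 0.02 without single samples, and the difference between Grm6 and Nyx from -0.35 to 0.00. The other differences of Grm6 from a member kept their sign throughout. With the other Grm6 probe set, added after seeing the data, the difference from Lrit3 was -0.36 and from Rgs11 -0.11. Another scaling moved the median of all probe sets by under 0.1 (-0.008 as reported, -0.026 with quantile normalization again, -0.004 with median centring). With 3 samples against 3, exact tests cannot go below 0.10.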

Other observations

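Among 11111 candidate probe sets of other genes with a mean above the median of those tested, 13 had a Pearson r above 0.95 with Grm6 (17249234) over the 6 samples. The 5 genes most alike, predicted and RIKEN symbols aside, were the RNA-binding protein gene Elavl2 (r = 0.989), the zinc finger gene Prdm15 (0.988), the metabotropic glutamate receptor gene Grm8 (0.982), Sirt6 itself (0.981) and the dynein heavy chain gene Dnah9 (0.976). The samples fall into 2 genotypes that are apart in Grm6, so that any gene with the same separation has a high r, and r is given as a measure of likeness only. Elavl2 read 7.99, 8.11 and 8.07 in KO replicates 1 to 3, against 8.39, 8.31 and 8.55 in WT replicates 1 to 3. Dnah9 read 7.05, 7.24 and 7.32 in KO replicates 1 to 3, against 7.81, 7.74 and 7.85 in WT replicates 1 to 3. The log2 fold changes were -0.36 (standard error 0.16) for Elavl2, -0.37 (0.15) for Prdm15, -0.38 (0.15) for Grm8 and -0.60 (0.16) for Dnah9, with unadjusted p between 0.0048 and 0.0469 from limma. These genes were picked for their likeness to Grm6 over the same 6 samples. Lower values in KO with small p-values follow from that choice and are no independent support.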
